A study of Bos taurus with 3 samples.

Results

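*FABP4*, *FABP5*, *FABP3* and *CD36* are genes of long-chain fatty acid handling, and their transcripts were followed here through the epithelial cells of the cow rumen. The 4 genes were chosen by name out of the 19533 genes of the count matrix. They were described across cells set apart by the transcripts of 4 marker genes, *IGFBP5*, *GJA1*, *GSTA1* and *DLK2*. Single-cell RNA sequencing had been run on rumen tissue of the ventral sac from 3 adult Holstein dairy cows in lactation, with 1 library per cow and 1 condition. No cow was treated, and each cow gave every group of cells compared below except where the cell minimum is named, so that the cow is the replicate. The deposited cells were those that the authors had kept as epithelial.

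Fatty acid binding proteins are small cytosolic carriers that take up long-chain fatty acids and hand them to enzymes, membranes and nuclear receptors. FABP4 is best known from fat cells, macrophages and capillary endothelium, FABP5 from the keratinocytes of skin and other stratified epithelia, and FABP3 from heart and skeletal muscle. CD36 is a membrane protein that helps fatty acids into cells. The rumen wall is lined by a keratinising stratified epithelium, which renews itself from a basal layer and sheds horny cells into the lumen.

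The 4 markers stand for different things. *IGFBP5* encodes a secreted binding protein for insulin-like growth factors, *GJA1* a connexin of gap junctions, *GSTA1* a glutathione transferase and *DLK2* a membrane protein of the delta-like family. The study used *GJA1*, *IGFBP5* and *GSTA1* to describe channel-gap like spinous cells and *DLK2* to describe granule cells. It also reported *FABP4* and *FABP5* from these same data as high in subtypes of the channel-gap like spinous cells. The tests of these genes below are therefore not independent of that report. An order of cells by these markers is an order of marker level and not of time.

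The matrix held 20728 cells, with 3369, 7401 and 9958 from cows 1, 2 and 3, and between 38912809 and 104189434 unique molecular identifiers (UMIs, each a tag for 1 captured RNA molecule) per cow. The median cell had 9747 to 12051 UMIs, and the median share of mitochondrial UMIs was between 10.8% and 17.2%, highest in cow 1. The keratin genes *KRT5*, *KRT14* and *KRT15* each had a UMI in at least 20627 cells. So that detection could be compared between cells, each cell was thinned at random to 5000 UMIs, which left 2783, 7173 and 9254 cells and dropped 1518 shallower ones, 17.4% of the cells of cow 1 and fewer in the others. A barcode occurred in more than 1 library for 70 cells, and no call on the members changed without them. Levels below are UMIs per 10000 UMIs, summed over all UMIs of the cells named and without division by gene length, because the kit counts only the 3′ end of each molecule.

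*FABP5* (ENSBTAG00000047330) was the abundant member. It had 391241 UMIs, at a level of 14.0, 12.6 and 20.8 UMIs per 10000 in cows 1, 2 and 3 (15.8 ± 4.37, mean ± SD, n = 3). At 5000 UMIs it was detected in 80.1%, 78.9% and 95.3% of the cells, and over all UMIs in 18824 cells or 90.8%. Cow 3 stood above the other cows in both level and detection.

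*FABP4* (ENSBTAG00000037526) was the scarcer of the abundant pair. It had 17450 UMIs, at a level of 0.961, 0.819 and 0.570 UMIs per 10000 (0.783 ± 0.198, n = 3). It was detected in 10.1%, 7.74% and 7.48% of the thinned cells (8.44% ± 1.44), and over all UMIs in 2549 cells or 12.3%. Cow 3, which was highest for *FABP5*, was lowest here. The deposited cells hold no cell type known to lack FABP4, so that a background share could not be read from one. The lowest mean share in any group of cells described below was 1.86%, in cells with 1 to 2 *FABP5* UMIs.

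The transcripts of *FABP4* were found in few cells. After thinning, the 1% of cells with the most *FABP4* UMIs held 46.1% ± 7.25 of them. The same share for *FABP5*, which far more cells held, was 6.65% ± 1.43. Single cells reached 179 UMIs of *FABP4* and 319 of *FABP5* before thinning. The ratio of variance to mean was 9.49 ± 1.35 for *FABP4* and 9.33 ± 0.881 for *FABP5*, so that on this measure both genes varied far more than counting alone, where the ratio is 1.

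The other members were near the limit of detection. *FABP3* (ENSBTAG00000016819) had 49 UMIs in 39 cells, with 4, 20 and 25 UMIs in cows 1, 2 and 3. *CD36* (ENSBTAG00000017866) had 4 UMIs in 4 cells, all of cow 2. Nearly all UMIs of the 4 members were thus of *FABP5* and *FABP4*.

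The rest of the family of intracellular lipid binding proteins was sparse too. Of 16 family genes, 14 were found in the matrix, while *FABP1* and *FABP6* were not matched by name. *RBP2*, the cellular retinol carrier known from absorbing cells of the gut, had 2203 UMIs in 974 cells. *CRABP2*, a retinoic acid carrier, had 40 UMIs. In the RefSeq gene table (ARS-UCD2.0), *FABP5*, *PMP2*, *FABP9*, *FABP4* and *FABP12* follow each other on chromosome 14 with no other protein-coding gene between them. The 3 genes between and beside the abundant pair had 3 UMIs each.

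Each thinned cell was then put in 1 of 10 classes by which of the 4 markers it held a UMI of. The largest was the no-marker class, with 721, 2404 and 3070 cells in cows 1, 2 and 3. The smallest was the class with *GJA1* only, with 39, 46 and 16 cells, of which cow 3 fell under the minimum of 20 cells and was left out. No UMI of a member took part in the classing. Depth and mitochondrial share moved with the markers: the median cell of the no-marker class had 10952, 12628.5 and 9813.5 UMIs, against 17843, 18723 and 14269 in the class with *IGFBP5*, *GJA1* and *GSTA1* together, and the mitochondrial medians were 15.0%, 10.8% and 12.2% against 25.5%, 16.1% and 15.8%. The part of these in the results below was not tested.

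**Figure D1:**
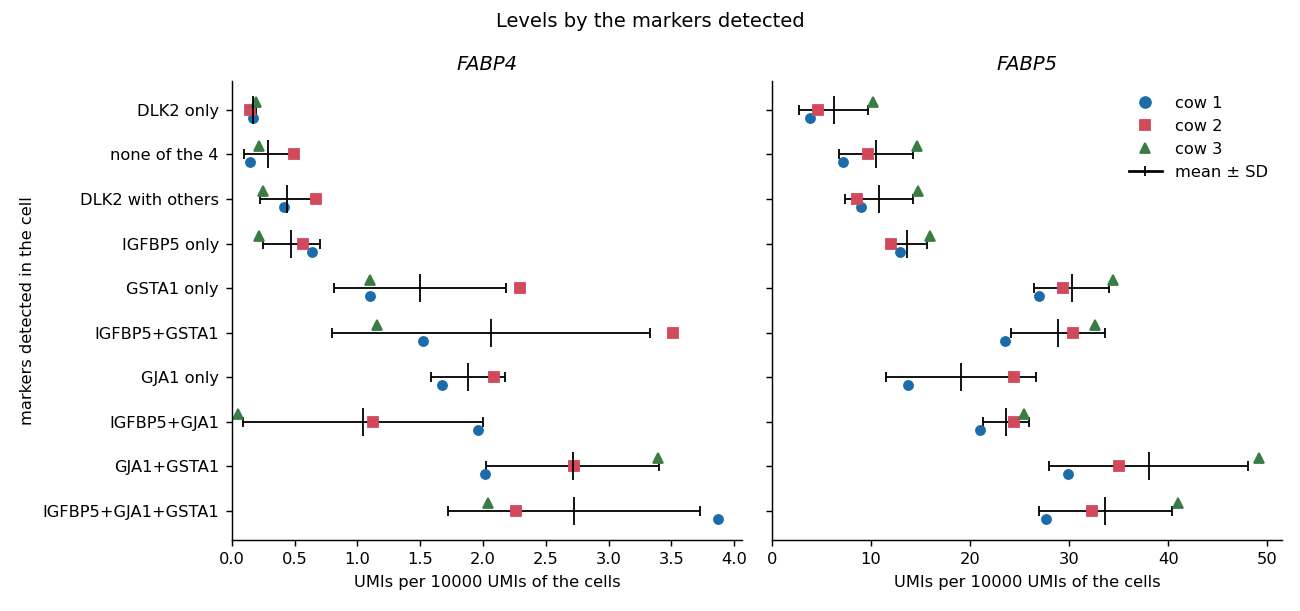
Level of *FABP4* (left) and *FABP5* (right) in UMIs per 10000 UMIs, by the markers detected in the cells. Points are the 3 cows (2 for *GJA1* only), bars the mean ± SD. Both genes were lowest in cells with *DLK2* only and highest in cells with both *GJA1* and *GSTA1*, and the scatter between cows was wide for *FABP4*.

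*FABP5* was low in cells with *DLK2* only and high in the 4 classes with *GSTA1* and no *DLK2*. In the *DLK2*-only class its level was 3.81, 4.68 and 10.2 in cows 1, 2 and 3. In the no-marker class it was 7.23, 9.66 and 14.6 (10.5 ± 3.76). In cells with *GSTA1* only it was 27.0, 29.4 and 34.4 (30.3 ± 3.80), so that the cows of these last classes did not overlap.

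The highest *FABP5* level was found in cells with *GJA1* and *GSTA1*, at 29.9, 35.0 and 49.2 (38.0 ± 10.0), where every thinned cell had a UMI of it. Cells with all of *IGFBP5*, *GJA1* and *GSTA1* had 27.7, 32.3 and 41.0 (33.7 ± 6.73). In rising order of the mean, the classes ran from *DLK2* only (6.24 ± 3.49) through no marker, *DLK2* with others (10.8 ± 3.44), *IGFBP5* only (13.6 ± 2.03), *GJA1* only (19.1 ± 7.55, n = 2), *IGFBP5* with *GJA1* (23.6 ± 2.35), *IGFBP5* with *GSTA1* (28.9 ± 4.74), *GSTA1* only and the triple class to *GJA1* with *GSTA1*. Taken without pairing by cow, the cows of each class overlapped with those of its neighbours in this order. Such an overlap does not compare the classes within a cow. Detection at equal depth was 72.0% ± 15.3 at its low end and 100% at its top.

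*FABP4* spanned a wider range. Its level was 0.166, 0.142 and 0.192 in the *DLK2*-only class (0.167 ± 0.0252) and 0.144, 0.496 and 0.220 in the no-marker class (0.287 ± 0.185). In cells with *GJA1* and *GSTA1* it was 2.02, 2.73 and 3.40 (2.72 ± 0.689). The triple class had 3.88, 2.26 and 2.04 (2.73 ± 1.00). Every cow of the last 2 classes lay above every cow of the first 2.

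Between these ends lay *DLK2* with others (0.442 ± 0.213), *IGFBP5* only (0.475 ± 0.229), *IGFBP5* with *GJA1* (1.04 ± 0.957), *GSTA1* only (1.50 ± 0.688), *GJA1* only (1.88 ± 0.297, n = 2) and *IGFBP5* with *GSTA1* (2.06 ± 1.27). Taken without pairing by cow, the cows of each class again overlapped with those of its neighbours in the order. The share of cells with a *FABP4* UMI at equal depth was 4.02% ± 1.68 without markers, 3.84% ± 1.23 with *DLK2* only, 29.0% ± 2.54 with *GJA1* and *GSTA1* and 31.7% ± 7.85 with all 3 markers. A level over a class holds both the share of cells with the transcript and its amount per cell. The triple class had 3.91% ± 2.90 of the cells and 20.0% ± 17.1 of the *FABP4* UMIs, a share that was highest in cow 1, at 39.7%.

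The level of *FABP4* relative to *FABP5* differed between classes as well. There were 2.88 ± 1.97 *FABP4* UMIs for every 100 *FABP5* UMIs in the no-marker class and 7.15 ± 0.559 with *GJA1* and *GSTA1*. The triple class had 14.0, 6.99 and 4.98 in cows 1, 2 and 3, above the 1.99, 5.14 and 1.51 of the same cows without markers. No test was run on this ratio.

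Differences between classes were tested with edgeR's quasi-likelihood test on UMI sums per cow and class, with the cow as a block and Benjamini-Hochberg adjustment over all 10036 genes tested. A gene was called where its adjusted p was under 0.05 and its log2 fold change was above 0.25 or under -0.25. *FABP4* and *FABP5* passed the filter on low counts and *FABP3* and *CD36* did not, so that 2 of the 4 members have a test. The contrasts against the no-marker class share that class, and their values are given side by side. The 29 class sums were fitted together, with 17 residual degrees of freedom. The SE and p of a contrast thus draw on the spread over all classes. They do not measure how that contrast varied between the cows. Fitted without the cow as a block, the calls below on *FABP5* and *FABP4* in the *GJA1*-only class and the class with *IGFBP5* and *GJA1*, on *FABP5* with *DLK2* only and in the direct contrast of *GJA1* with *GSTA1* against *IGFBP5* with *GJA1*, and on *FABP4* with *GSTA1* only were lost.

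Both genes were higher in the triple class, where 42.4% of all genes tested were called. The log2 fold change of *FABP5* was 1.84 ± 0.16 (SE, edgeR adjusted p = 2.74e-11), with 2.08, 1.78 and 1.69 in the single cows. That of *FABP4* was 3.38 ± 0.36 (edgeR adjusted p = 1.89e-09), with 4.88, 2.23 and 3.41. In the class with *GJA1* and *GSTA1*, where 39.9% of genes were called, *FABP5* was higher by 1.95 ± 0.16 (edgeR adjusted p = 8.67e-12) and *FABP4* by 3.37 ± 0.36 (edgeR adjusted p = 3.25e-09). So large a share of all genes was called in both contrasts that a call by itself sets neither gene apart.

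The class with *IGFBP5* and *GJA1* but without *GSTA1* gave a less even picture. *FABP5* was higher by 1.24 ± 0.16 on the log2 scale and in each cow (edgeR adjusted p = 1.00e-06), beside 13.4% of genes called. That share is 1342 genes, against 568 of 10955 without cow 1 and 656 of 10480 without cow 2. *FABP4* was called at 2.18 ± 0.45 (edgeR adjusted p = 0.000744), but its values in single cows were 3.84, 1.15 and -2.20. Its level there was 1.96, 1.12 and 0.0506, and in cow 3 it rested on 1 UMI in 20 cells. Without cow 1 the fold change was 1.14 and the call was lost.

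The class with *GJA1* and *GSTA1* was also set directly against that with *IGFBP5* and *GJA1*, and 4.99% of genes were called. That share is 501 genes, against 159 of 10955, 276 of 10480 and 243 of 9748 without cows 1, 2 and 3. *FABP5* was higher by 0.71 ± 0.16 on the log2 scale (edgeR adjusted p = 0.00556). This call was lost without the cow as a block (0.77), at 3000 UMIs per cell, with a marker counted from 2 UMIs and without cycling cells, where the fold change under the last 3 was 0.32 to 0.52. The value of *FABP4* was 1.19 ± 0.43 and was not called (edgeR adjusted p = 0.125), was called without cow 1 at 2.19 and turned to -0.36 with a marker counted from 2 UMIs.

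Cells with 1 of the markers alone differed by marker. With *GSTA1* only, where 25.2% of genes were called, *FABP5* was higher by 1.62 ± 0.16 (edgeR adjusted p = 2.38e-09) and *FABP4* by 2.37 ± 0.35 (edgeR adjusted p = 3.44e-06), and both were higher in each cow. The genes called there fell from 2533 to 1598 of 9748 without cow 3. With *GJA1* only, where 5.5% of genes were called, *FABP5* was higher by 0.98 ± 0.18 (edgeR adjusted p = 0.000473) and *FABP4* by 2.37 ± 0.51 (edgeR adjusted p = 0.00274). That contrast rests on 85 cells of 2 cows, and neither call held without cow 2, when 22 of 10480 genes were called in place of 552 of 10036. That fit has 1 sum of 39 cells in the class, and its spread is taken from the other classes. With classes from the deposited counts *FABP5* was at 0.31 and *FABP4* at 1.75, both without a call, and *FABP4* was not called without cycling cells (1.81) or without cells of high UMI counts (1.91).

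With *IGFBP5* only, where 2.56% of genes were called, neither gene was called. That share is 257 genes, against 92 of 10955 without cow 1 and 128 of 9748 without cow 3. The log2 fold change of *FABP5* was 0.48 ± 0.16 (edgeR adjusted p = 0.113) and was called at 0.64 without cow 3, at 0.73 with a marker counted from 2 UMIs and at 0.47 with no filter on low counts. That of *FABP4* was 0.65 ± 0.35 (edgeR adjusted p = 0.519), with 2.22, 0.23 and -0.0015 in cows 1, 2 and 3, and it was called at 0.63 with no filter. With *DLK2* only, where 9.35% of genes were called, *FABP5* was lower in every cow, at -0.83 ± 0.16 on the log2 scale (edgeR adjusted p = 0.000525). That share is 938 genes, against 548 of 10955 without cow 1 and 360 of 10480 without cow 2. *FABP4* was at -0.93 ± 0.42 and was not called (edgeR adjusted p = 0.177), with 0.13, -1.87 and -0.19 in the cows, and it was called at -1.29 without cow 3, at -1.59 with another seed of the thinning, at -1.42 at 3000 UMIs and at -0.98 with no filter on low counts.

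**Figure D2:**
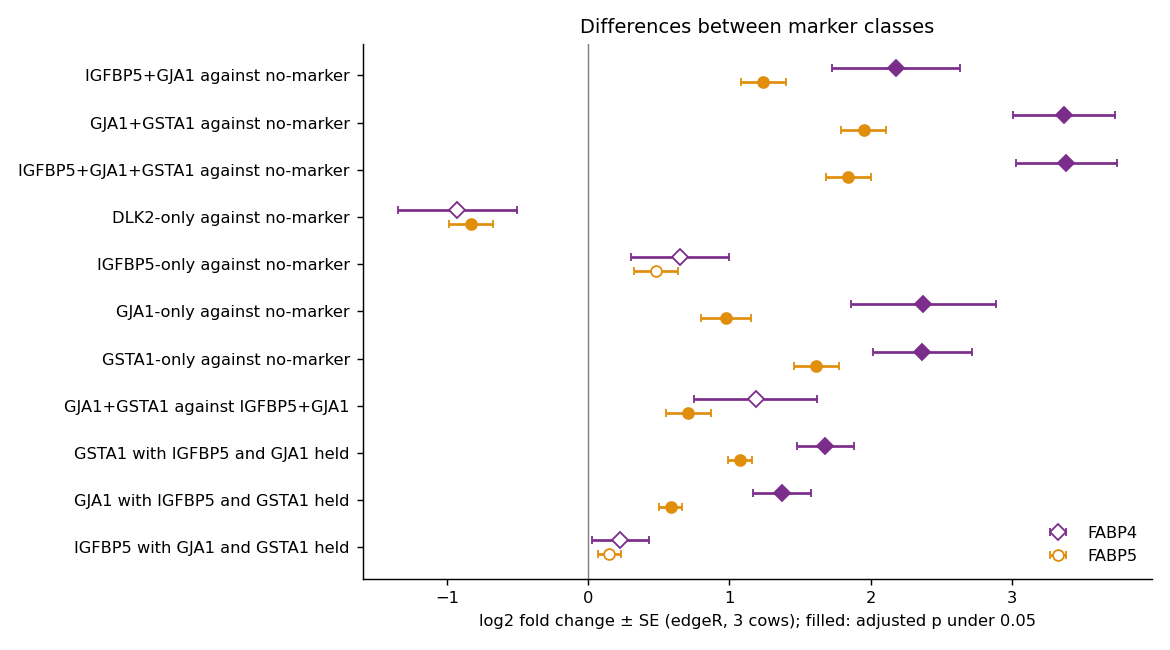
Log2 fold change ± SE of *FABP4* (diamonds) and *FABP5* (circles) between marker classes, from edgeR with the cow as a block. Filled symbols passed an adjusted p of 0.05. The largest differences lie in the 2 classes with *GJA1* and *GSTA1* together. The contrasts on *IGFBP5* are open symbols, at 0.48 and 0.65 with *IGFBP5* only. With detection of the other markers held they are at 0.15 and 0.23.

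The same fit gave the difference that goes with each marker while detection of the other 2 is held. It is the mean of 4 class differences. The levels of the other markers were not held. *GSTA1* itself was at 15.3 ± 10.5 with *GJA1* and *GSTA1* against 5.96 ± 3.02 with *GSTA1* only, so the value for *GJA1* also holds a difference in *GSTA1* level. With *GSTA1*, *FABP5* was higher by 1.07 ± 0.083 (edgeR adjusted p = 5.43e-12) and *FABP4* by 1.68 ± 0.20 (edgeR adjusted p = 6.25e-08), beside 19.7% of genes called. With *GJA1*, *FABP5* was higher by 0.58 ± 0.082 (edgeR adjusted p = 1.07e-06) and *FABP4* by 1.37 ± 0.21 (edgeR adjusted p = 4.16e-06), beside 21.9%. Cow 3 has no value of its own in these contrasts, because its *GJA1*-only class was left out. In cows 1 and 2 the value of *FABP4* was 1.85 and 0.60 for *GJA1* and 1.42 and 1.62 for *GSTA1*. With *IGFBP5*, the values were 0.15 ± 0.082 for *FABP5* (edgeR adjusted p = 0.360) and 0.23 ± 0.20 for *FABP4* (edgeR adjusted p = 0.626), beside 4.51%, and neither was called. *FABP4* there was at 1.01 and -0.015 in cows 1 and 2. With classes from the deposited counts *FABP5* was called at 0.48. Leaving out each cow in turn, the value for *FABP5* ranged from 0.036 to 0.24, and that for *FABP4* turned to -0.21 without cow 1. Genes called fell from 1977 to 1198 without cow 1 for *GSTA1*, from 2195 to 1196 without cow 2 for *GJA1*, and from 453 to 209 and 164 without cows 1 and 2 for *IGFBP5*.

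Levels were also read against the count of each marker. From cells with no *GSTA1* UMI to cells with 5 or more of 5000, the level of *FABP5* went from 11.0 ± 3.04 to 40.3 ± 4.60 and that of *FABP4* from 0.367 ± 0.139 to 2.79 ± 0.893. Over *GJA1* the level of *FABP4* went from 0.552 ± 0.126 at no UMI to 2.99 ± 1.62 at 3 to 4, and was 1.72 ± 0.858 at 5 or more, lower in each cow (4.85 against 2.71, 1.95 against 1.30 and 2.16 against 1.16). Over *IGFBP5* the levels went from 14.2 ± 5.21 at no UMI to 25.0 ± 4.79 at 5 or more for *FABP5* and from 0.576 ± 0.0854 to 1.97 ± 1.30 for *FABP4*, where cow 3 had 0.557 and 0.712. Over *DLK2* the levels went the other way, from 18.1 ± 3.76 at no UMI to 5.89 ± 4.51 at 3 to 4 for *FABP5* and from 0.942 ± 0.287 to 0.151 ± 0.0989 for *FABP4*. These steps are descriptions without a test.

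The order of onset was read over 9 bins of cells. They began with cells rich in *DLK2*, passed cells without markers, and ended with cells rich in the summed UMIs of *IGFBP5*, *GJA1* and *GSTA1*. The make-up of that sum changed along the bins. At 1 summed UMI the mean levels of *IGFBP5*, *GJA1* and *GSTA1* were 1.54, 0.0942 and 0.479, and in the last bin 3.84, 5.43 and 15.3. The last bin of cow 1 had *GJA1* at 7.81 and *GSTA1* at 8.71, and that of cow 3 had 2.16 and 25.4. The part of this in the order was not tested. The mean level of *FABP5* was 4.67, 5.79, 6.67, 10.5, 14.1, 18.6, 24.4, 32.4 and 37.5 from the first bin to the last. That of *FABP4* was 0.118, 0.108, 0.201, 0.287, 0.492, 0.811, 1.33, 2.48 and 2.81. The mean of *FABP5* was higher at each step, while that of *FABP4* was at 0.287 or lower through the cells without markers.

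**Figure D3:**
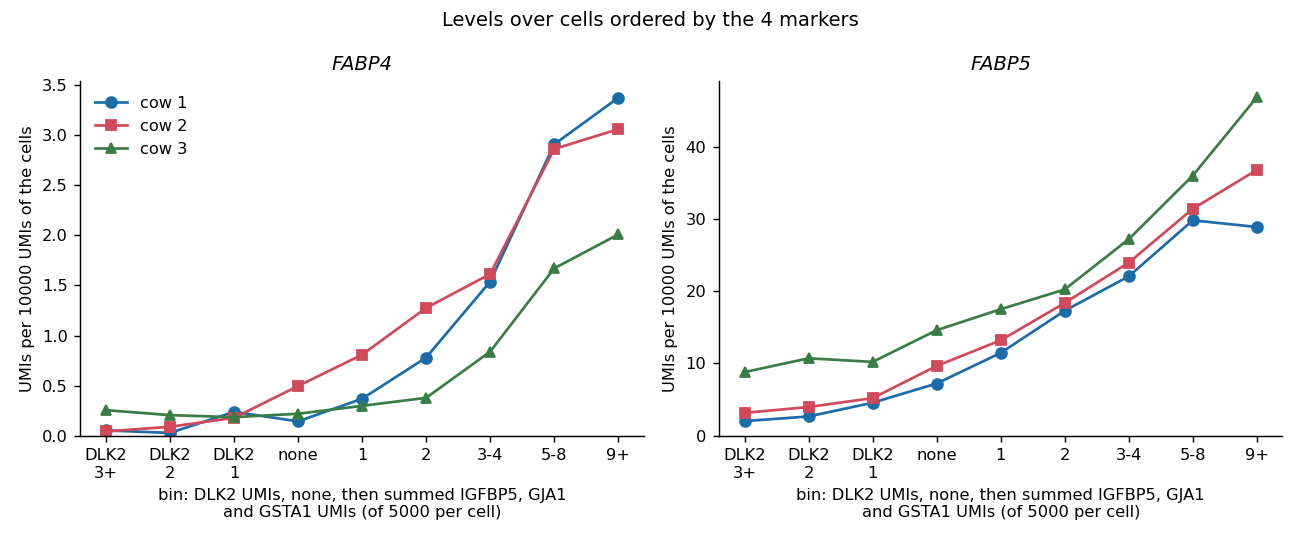
Level of *FABP4* (left) and *FABP5* (right) in UMIs per 10000 UMIs over 9 bins of cells, from 3 or more *DLK2* UMIs to 9 or more UMIs of *IGFBP5*, *GJA1* and *GSTA1* summed. Lines are the 3 cows. In each cow the *FABP5* level was higher at each step from no markers to 5 to 8 summed UMIs, and *FABP4* was highest in the last bin. In other settings *FABP4* was highest at 5 to 8 in cows 1 and 2 (3000 UMIs per cell) or in cow 2 (another seed of the thinning).

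By the cells without markers, *FABP5* had covered 17.8% ± 2.20 of its rise and *FABP4* 6.78% ± 7.17 of its own. At 2 summed marker UMIs the shares were 43.4% ± 12.6 and 24.6% ± 15.3, and the *FABP5* share was the larger in each cow, with 55.0%, 45.2% and 30.1% against 22.5%, 40.9% and 10.6%. At 3000 UMIs per cell cow 2 turned, with *FABP5* at 45.2% and *FABP4* at 56.5%. At 5 to 8 marker UMIs they were 85.2% ± 14.3 and 87.0% ± 6.05, closer than the spread of the cows. An exact sign-flip permutation test over 3 cows cannot give a two-sided p under 0.25.

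The bin that passed the midpoint between the lowest and highest level was 6, 7 and 8 for *FABP5* in cows 1, 2 and 3 and 8, 7 and 8 for *FABP4*. *FABP4* was thus later in cow 1. With another seed of the thinning its bins were 8, 8 and 8 against 6, 7 and 8, and at 3000 UMIs they were 7, 6 and 7 against 6, 7 and 7, so that the order of the midpoints was not the same over cows and settings. Among the markers themselves the midpoint bin was 7, 6 and 6 for *IGFBP5*, 8, 9 and 9 for *GSTA1* and 9, 9 and 9 for *GJA1*. These set the bins, so that their order is no finding. From the lowest to the highest bin *FABP5* spanned a 14.7-, 11.6- and 5.32-fold range in the 3 cows. No such fold is given for *FABP4*, whose lowest bins hold few UMIs.

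*FABP4* and *FABP5* were found in the same cells more often than their separate frequencies give. Both were detected in 271, 525 and 684 cells of cows 1, 2 and 3, where the separate frequencies give 225.0, 438.1 and 659.3. The ratio was 1.15 ± 0.0948 and lowest in cow 3, at 1.04. Its ceiling is low because most cells have *FABP5*. The odds ratio, which has no such ceiling, was 7.55, 5.05 and 4.51, and within marker classes (Mantel-Haenszel) it was 3.34, 3.24 and 3.09 (3.22 ± 0.125).

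The co-detection was lopsided, as the separate frequencies alone would make it. Of all thinned cells 84.8% ± 9.13 had *FABP5* and 8.44% ± 1.44 had *FABP4*. Of the cells with *FABP4*, 96.4%, 94.6% and 98.8% had *FABP5* (96.6% ± 2.13), while of the cells with *FABP5* only 9.73% ± 2.24 had *FABP4*. The share of cells with *FABP4* was larger at higher *FABP5* counts, from 1.87% ± 0.0988 at no *FABP5* UMI through 1.86%, 4.34%, 10.9% and 20.6% to 34.7% ± 7.20 at 21 or more. In the other direction, the *FABP5* level was 14.0 ± 4.49 in cells without *FABP4*, 27.7 ± 5.02 at 1 UMI, 32.8 ± 5.24 at 2 and 40.1 ± 10.9 at 3 or more. Cells of high *FABP5* without *FABP4* remained in the majority.

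**Figure D4:**
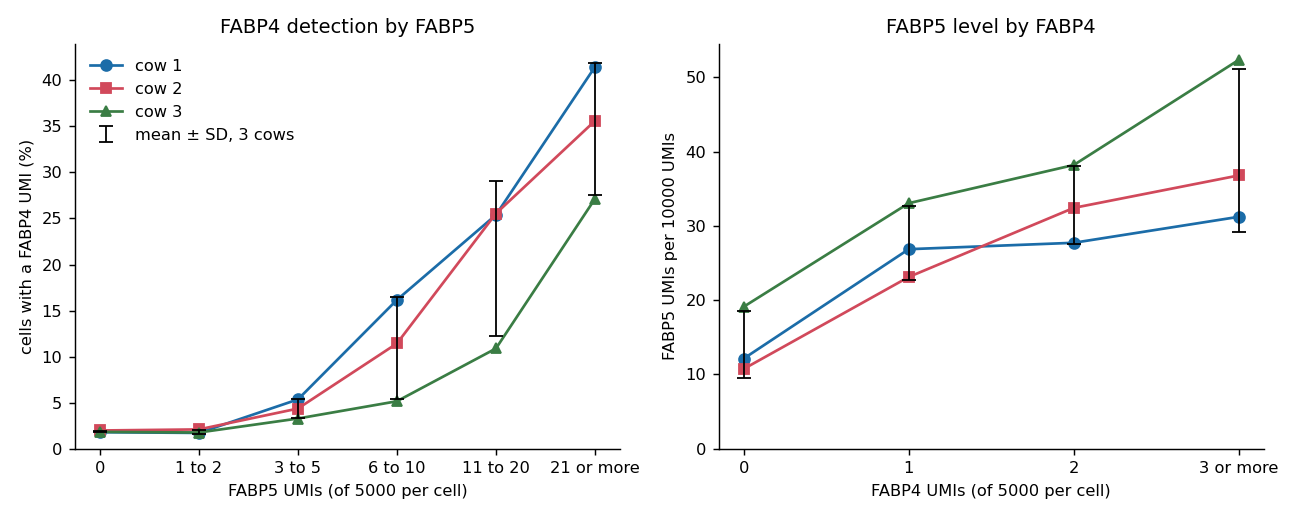
Percentage of cells with a *FABP4* UMI by the cell's *FABP5* UMIs (left) and *FABP5* level in UMIs per 10000 UMIs by the cell's *FABP4* UMIs (right), counted among 5000 UMIs per cell. Lines are the 3 cows and bars the mean ± SD. Detection of *FABP4* is at most 2.10% up to 2 *FABP5* UMIs and is at least 27.1% at 21 or more.

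*FABP4* was found with *GJA1* at 3.12 ± 0.168 times the number that their separate frequencies give, with *GSTA1* at 2.68 ± 0.695 times and with *IGFBP5* at 1.25 ± 0.223 times. The first pair lay within the spread of the cows, and the last was 1.44, 1.32 and 1.01 in the cows, so that cow 3 showed no excess. With *DLK2* the ratio was 0.566 ± 0.117. For *FABP5* the ratios were 1.16, 1.16, 1.05 and 0.893 ± 0.0627 for the same markers. The ceiling of such a ratio is lower where the commoner gene is found in more cells, so the ratios cannot be ranked over pairs. On average *GJA1* was detected in 8.98% of thinned cells, *GSTA1* in 21.3%, *IGFBP5* in 43.4%, *DLK2* in 25.7% and *FABP5* in 84.8%.

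Cells with both *IGFBP5* and *FABP4* were looked at for *GJA1*, which was detected in 16.5%, 5.83% and 4.66% of all thinned cells of cows 1, 2 and 3. There were 184, 285 and 317 cells with both, of which 41.3%, 78.6% and 82.6% had no *GJA1* UMI at 5000 UMIs, so that *GJA1* was found more often among them than in all cells. Those without it were 2.73%, 3.12% and 2.83% of all, and their *FABP5* level was 27.6, 29.9 and 36.6. A missing UMI at this depth does not show that a cell lacked the transcript.

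Of the rare members, *FABP3* shared a cell with *FABP4* in 5 cells and *CD36* in 1, counted over all UMIs. Over the same UMIs and the thinned cells' classes, *FABP3* had a UMI in 17 of the 6195 cells without markers, a share of 0.274% (exact binomial 95% interval 0.160% to 0.439%). It was found in none of the 573 cells of the triple class, which allows a share of cells with a UMI of up to 0.524% (3 counts of the cells), and in none of the 361 with *GJA1* and *GSTA1*, which allows 0.831% by the same rule. The upper bounds of the exact interval there were 0.642% and 1.02%. The highest share was in cells with *IGFBP5* and *GSTA1*, where 6 of 1377 had a UMI (0.436%, 0.160% to 0.946%). *CD36* was found in 2 cells without markers and in 2 with *DLK2* only. No test between classes was run for either gene, and the intervals of the classes overlapped. Intervals and limits cover counting error only.

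Within 9 of the 10 classes, cells with *FABP4* had more *FABP5*, and the class with *GJA1* only had too few cells with *FABP4* to be compared. Without markers the *FABP5* level was 14.2, 22.6 and 28.0 with a *FABP4* UMI and 7.07, 8.79 and 13.8 without one, a ratio of 2.20 ± 0.319. In the triple class it was 29.9, 40.5 and 47.5 against 26.0, 28.7 and 38.4, a ratio of 1.27 ± 0.133. The ratio was highest and most scattered with *DLK2* only, at 4.93, 2.31 and 1.63 in cows 1, 2 and 3 (2.96 ± 1.74). With *DLK2* and others it was 2.00 ± 0.321. It was 2.22 ± 0.265 with *IGFBP5* only, 1.65 ± 0.0827 with *GSTA1* only, 1.50 ± 0.0458 with *IGFBP5* and *GSTA1* and 1.28 ± 0.0355 with *GJA1* and *GSTA1*. It was above 1 in every class and cow with at least 10 cells on each side, which for *IGFBP5* with *GJA1* was cow 1 alone.

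**Figure D5:**
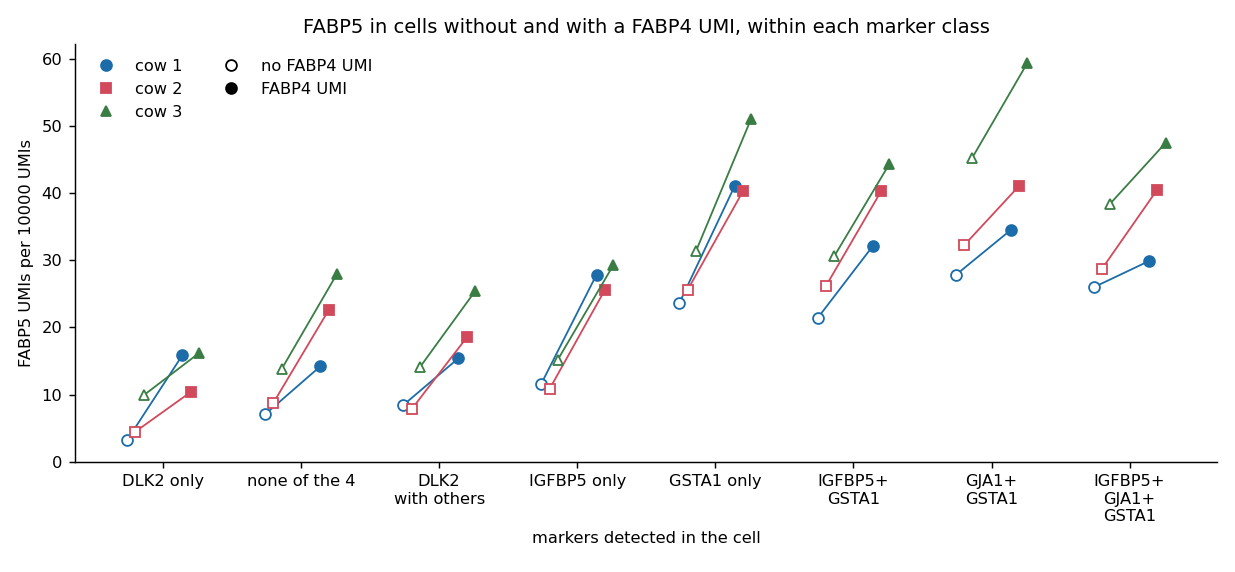
*FABP5* level in UMIs per 10000 UMIs in cells without (open) and with (filled) a *FABP4* UMI at 5000 UMIs per cell, within each marker class. Lines join the same cow. Every line climbs, and the mean ratio was 2.20 in cells without markers and 1.27 in cells with all 3 of *IGFBP5*, *GJA1* and *GSTA1*.

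Tested over all cells, *FABP5* was higher in cells with *FABP4* by 1.31 ± 0.068 on the log2 scale (edgeR adjusted p = 7.38e-07), with 1.36, 1.50 and 1.08 in the cows, and 21.7% of 11114 genes were called. In the no-marker class it was higher by 1.12 ± 0.063, with 0.97, 1.35 and 1.00, and 4.02% of 9201 genes were called. The genes called fell from 370 to 86 of 9392 without cow 2 and 109 of 9279 without cow 3, and over all cells from 2407 to 1581 of 11363 without cow 2. In the no-marker class edgeR took the spread wholly from the trend over genes. Its edgeR adjusted p of 6.44e-67 for *FABP5* is thus too small to be read as 3 cows' worth of evidence. The cells with *FABP4* numbered 281, 555 and 692 in the first split and 15, 123 and 149 in the second. Without the cow as a block neither difference was called.

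Cells with *FABP4* also held more UMIs. Their median was 17589, 16248 and 12628 UMIs before thinning, against 11421.5, 11929.5 and 9938 in cells without it. Their median mitochondrial share was 23.1%, 12.4% and 13.0% against 16.5%, 10.7% and 12.5%. The part of depth and mitochondrial share in these differences was not tested.

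Genes of a list named late keratinocyte here were higher in cells with *FABP4*, and genes listed as basal were not. All 5 genes of a list named late keratinocyte here (*S100A8*, *KRT6A*, *KRT10*, *TMEM79*, *BPIFA2C*) were called higher, beside 11.4% of all genes tested. Their summed level was 11.3 to 22.3 UMIs per 10000 against 4.99 to 8.91. The study had reported these genes and *FABP4* from the same data as high in channel-gap like spinous cells, or in a subtype of them. Their calls are therefore no independent support. The study used *KRT10*, *S100A8* and *KRT6A* as spinous markers, so that the name of the list does not place a cell late in differentiation. By class the summed level was lowest with *DLK2* only, at 2.61 ± 0.224. It was 4.32 ± 0.241 without markers, 27.1 ± 4.67 in the triple class and 51.8 ± 27.2 with *GJA1* and *GSTA1*. Of the 6 genes of a basal list 1 was lower, beside 10.3% of all genes, and none higher. Without the cow as a block edgeR called no gene in this split, with 902 at an unadjusted p under 0.05 and 1600 called by DESeq2 with the block, and this holds for each count in cells with *FABP4* below.

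Because FABP4 is known from other cell types, their markers were looked for too. Among 9 markers of endothelium *PECAM1* and *CDH5* had 4 and 3 UMIs in all cells, *VWF* had 563 and the others 3 to 46. The 1 endothelial gene tested was not called in cells with *FABP4* (0.44 on the log2 scale) and was higher in the triple class by 0.95. The summed endothelial list was at 0.0270 to 0.0379 UMIs per 10000 in cells with *FABP4* and 0.0225 to 0.0405 in the others. Of 6 adipocyte genes 4 were matched, *CIDEC* had no UMI, *PLIN1* 79 and *LPL* 16, while *CIDEA* had 4838 and was higher in cells with *FABP4* by 0.33 on the log2 scale. It was the 1 adipocyte gene tested, and it was higher than in the no-marker class by 1.41 in the triple class and 1.92 with *GJA1* and *GSTA1*. By class the summed adipocyte list was at 0.176 ± 0.0881 without markers, 0.402 ± 0.183 in the triple class and 0.573 ± 0.104 with *GJA1* and *GSTA1*, and its part in the results was not tested. In cells with *FABP4* the list was higher in each cow, at 0.279, 0.370 and 0.120 against 0.236, 0.296 and 0.101 in the others. The immune list was at 0.201, 0.288 and 0.245 against 0.315, 0.420 and 0.227, so that cow 3 went the other way. Of its 9 genes *C1QA* had 3 UMIs, *CD163* none, *CD14* 5013, *AIF1* 1410, *CD68* 819 and *CD3E* 211. Of the 4 tested in cells with *FABP4* 1 was higher, by 0.48, and 1 lower, and of the 3 tested in the triple class 1 was higher, by 0.99, and 1 lower. The fibroblast list was at most 0.00398 in either part of the split and at most 0.00530 in any class and cow.

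*RBP2* was the other lipid binding protein that differed between classes. Its level was 0.0113 ± 0.00813 UMIs per 10000 in the no-marker class, 0.151 ± 0.117 with *GSTA1* only, 0.244 ± 0.0923 with *GJA1* only (n = 2), 0.787 ± 0.257 in the triple class and 0.864 ± 0.293 with *GJA1* and *GSTA1*. It was higher in the triple class by 6.48 ± 0.27 on the log2 scale (edgeR adjusted p = 8.61e-19). With detection of the other markers held, its log2 fold change was 3.49 ± 0.29 for *GJA1* and 2.37 ± 0.18 for *GSTA1*. For *FABP4* the value for *GSTA1* (1.68 ± 0.20) was the larger of the pair in the fit. In cow 1 the *FABP4* value was larger for *GJA1* (1.85 against 1.42) and in cow 2 for *GSTA1* (1.62 against 0.60), while cow 3 had none. Whether the markers differed in this was not tested. Of the 4 genes of this list tested in the triple class 3 were higher, beside 20.4% of all genes, and in cells with *FABP4* all 3 tested were higher, beside 11.4%, *RBP2* by 1.73. *FABP5* and *FABP4* are among the members of the list.

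Uptake and activation genes were called in part. In the triple class 20.4% of all genes tested were higher and 22.1% lower, and in cells with *FABP4* 11.4% and 10.3%, which stand beside the list counts from here on. In the triple class 5 of 13 tested were higher and 1 lower, with a list median of 0.03 on the log2 scale against -0.04 for all genes. *SLC27A2*, a transport protein and synthetase for very long-chain acyl-CoA, was higher by 2.70 ± 0.30, and *ACSF2*, a mitochondrial acyl-CoA synthetase, by 1.32 ± 0.087. *ACSL4*, a synthetase that favours arachidonic acid, was lower, at -1.16 ± 0.47. In cells with *FABP4*, *ACSF2* was higher by 0.59 and *SLC27A2* was at 0.60 without a call.

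Of the receptors that these carriers are known to serve, *PPARD* was higher in the triple class by 0.74 ± 0.12, *RXRA* by 0.73 ± 0.085 and *PPARG* by 0.40 ± 0.091. Of the 11 tested, 3 were thus higher, 1 was lower and 7 were not called. In cells with *FABP4*, *PPARD* was higher by 0.44 and *NCOA2*, a coactivator, was lower at -0.43, while *PPARG* was at 0.16 without a call.

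Of the genes of lipid droplets, esterification and lipolysis, 7 of 9 tested were higher and 1 lower in the triple class, with a median of 0.77 against -0.04 for all genes. *ABHD5*, the activator of the triglyceride lipase, was higher by 1.94 ± 0.23, *GPAM*, which begins glycerolipid synthesis, by 1.19 ± 0.36, *DGAT1*, which ends it, by 0.89 ± 0.11, and *PLIN3*, a droplet coat protein, by 0.81 ± 0.099. The gene called lower was *MGLL*, the monoglyceride lipase, which had no UMI in the triple class. It passed the filter on low counts only through other classes, so that its call rests on that absence. In cells with *FABP4*, *ABHD5* was higher by 1.16, *DGAT1* by 0.45 and *AGPAT2* by 0.41, and the other 9 of 12 tested were not called.

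Genes for the lipids of the skin barrier were called in both directions. In the triple class 3 of 11 tested were higher and 2 lower, with a median of 0.04. *ELOVL6*, an elongase of long-chain fatty acids, was higher by 1.41 ± 0.17, while *FASN*, which makes palmitate, was at -0.58 ± 0.17 and *UGCG*, which makes glucosylceramide, at -0.66 ± 0.23. In cells with *FABP4*, *ELOVL6* was higher by 0.76 and *UGCG* lower, at -0.51.

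Named by the size of the change and the same sign in 3 cows, the genes highest in cells with *FABP4* were *LY6D*, a surface protein, at 2.14 ± 0.46, ENSBTAG00000012150 at 2.10, *SULT1B1*, a sulfotransferase, at 2.06, *NUPR1*, a stress-response regulator, at 2.03 and *GBP4*, a guanylate binding protein, at 1.99. The lowest were ENSBTAG00000052797 at -3.01, *PLEKHS1* at -2.95, *ACKR3*, a chemokine scavenger receptor, at -2.85, *ZBTB16*, a transcription factor, at -2.61 and *SYCP3*, a protein of meiotic chromosomes, at -2.53. In the no-marker class the highest were *TMEM72* at 1.76, *BPIFA2C* at 1.57, *S100A8*, a calcium binding protein of stressed keratinocytes, at 1.32, *GSTA1* at 1.28 and *NDUFA12* at 1.28. *GSTA1* is listed there because a cell without its UMI at 5000 can still hold some among all of its UMIs. The lowest in that class were *ID4*, *DSEL*, ENSBTAG00000047904, *PAK1* and *MXRA5*, from -3.82 to -1.70. Cow 1 had only 15 cells with *FABP4* there, and its values for these genes were -7.67 to -5.69. In either split a gene can pass the filter on low counts through the cells without *FABP4* alone. A low value in a sum of so few cells is then little evidence, and the shared sign adds little for cow 1. Some values in single cows were small: -0.068 for ENSBTAG00000047904 in cow 3 and 0.098 for *BPIFA2C* in cow 2. Over all cells *LY6D* was at 0.26 in cow 2.

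The genes whose pattern over the classes was most like that of *FABP4*, by the mean Pearson correlation within cows over 10, 10 and 9 classes, were *RBKS* (0.945), *CCDC47* (0.939), *GAS2L1* (0.935), *IARS2* (0.932) and *TSPAN15* (0.932). *FABP5* came at rank 115 of 10035 genes, with 0.883. For *FABP5* they were ENSBTAG00000036116 (0.993), *TST* (0.990), *NDUFV1* (0.990), *MGST3* (0.988) and *ATP5MPL* (0.988), with *FABP4* at rank 416. The classes of a cow share its library and differ in depth, and no test was run.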

How the data were processed

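Single-cell libraries (Chromium 3′ kit) of 3 cows were analysed. The deposited matrix held UMI counts, which the authors made with Cell Ranger 3.1.0, and the deposited table held natural log values that the authors had normalised per cell. Only the counts were tested, and the table gave gene and cell names. The library of a cell was read from its barcode suffix. Members, classes and gene lists were chosen with earlier results of these data known.

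Cells were thinned to 5000 UMIs to set detection, and all UMIs were summed per cow and class (at least 20 cells). The splits by *FABP4* had no such minimum, and cow 1 had 15 cells with *FABP4* in the no-marker class. Sums were tested with edgeR 4.0.16 (R 4.3.3; TMM, filterByExpr, quasi-likelihood, Benjamini-Hochberg), with the cow as a block because every class came from the same animals. Sums of the same cow deviated together from the class means (mean r 0.464 to 0.564). The value between cows, -0.250, follows largely from taking deviations from means over the same cows and is no separate evidence. The study tested cells with no term for the cow. The fit was tested on simulated data. DESeq2 1.42.0, other filters, depths, class rules and cell sets were tried as alternatives. Contrasts with markers held and the set without shared barcodes were chosen after seeing the data.

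Named genes were the members, the markers, list genes, the 5 with the highest correlation to *FABP4* or *FABP5*, and the 5 with the largest change in each direction for cells with *FABP4*. Doublets had been treated by the authors with DoubletFinder, and no caller was run here. Results for some list genes are not reported here.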

Additional observations from a re-analysis of the deposited data

How the results depend on the processing

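Of 326 fold changes of the members under alternatives, 294 kept their direction and their side of the threshold, 19 lost a call, 11 gained one and 2 turned in sign. Without the block for the cow, the pairing of classes within animals is lost and these calls with it: *FABP5* at 1.16 and *FABP4* at 1.97 with *IGFBP5* and *GJA1*, *FABP5* at -0.80 with *DLK2* only, *FABP5* at 0.82 and *FABP4* at 2.58 with *GJA1* only, *FABP4* at 2.38 with *GSTA1* only, *FABP5* at 0.77 between *GJA1* with *GSTA1* and *IGFBP5* with *GJA1*, and *FABP5* at 1.29 and 1.12 in cells with *FABP4*, over all cells and without markers. The calls on both genes for *GJA1* with *GSTA1*, the triple class, and *GSTA1* or *GJA1* held, and on *FABP5* with *GSTA1* only, were kept.

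Without the filter on low counts, edgeR called *FABP4* at -0.98 with *DLK2* only, at 0.63 with *IGFBP5* only and at 1.16 between *GJA1* with *GSTA1* and *IGFBP5* with *GJA1*, and *FABP5* at 0.47 with *IGFBP5* only. *FABP4* with *DLK2* only was also called at 3000 UMIs (-1.42) and with another seed (-1.59). For *GJA1* with *GSTA1* against *IGFBP5* with *GJA1*, the call on *FABP5* was lost at 3000 UMIs (0.41), with a marker from 2 UMIs (0.32) and without cycling cells (0.52), and *FABP4* turned to -0.36 with a marker from 2 UMIs. That rule called *FABP5* at 0.73 with *IGFBP5* only. With classes from the deposited counts, *FABP5* at 0.31 and *FABP4* at 1.75 with *GJA1* only were not called, while *FABP5* was called at 0.48 for *IGFBP5* with the others held. *FABP4* with *GJA1* only was not called without cycling cells (1.81) or without cells of high UMI counts (1.91).

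Leaving out each cow in turn, the fold change ranged from 1.14 to 2.87 for *FABP4* with *IGFBP5* and *GJA1*, from -1.29 to -0.15 for *FABP4* and -1.06 to -0.70 for *FABP5* with *DLK2* only, from 0.26 to 0.64 for *FABP5* and 0.14 to 1.00 for *FABP4* with *IGFBP5* only, from 0.66 to 1.14 for *FABP5* and 2.08 to 2.81 for *FABP4* with *GJA1* only, from 0.53 to 2.19 for *FABP4* between *GJA1* with *GSTA1* and *IGFBP5* with *GJA1*, and from -0.21 to 0.49 for *FABP4* with *IGFBP5*, the others held.

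The observed over expected co-detection of *FABP4* with *FABP5* was 1.27 at 3000 UMIs, and its odds ratio within classes was 3.50 on deposited counts, 3.90 at 3000 UMIs, 3.46 with another seed and 2.97 without cycling cells. The mean midpoint bin of *FABP4* was 6.67 both at 3000 UMIs and when an earlier point of the rise was taken. With mitochondrial UMIs left out of the denominator, 6 of 20 class levels moved by at least the SD over cows. The mean *FABP5* level was then 12.1 without markers and 41.5 in the triple class, and that of *FABP4* 0.327 and 3.43. Over all genes, 134 of 189 counts of calls stayed within 1.5 times. The fit without the block gave the fewest in each contrast, between 0 and 1418. It gave 0 with *IGFBP5* only (40 genes at an unadjusted edgeR p under 0.05, 66 called by DESeq2) and 0 in both splits by *FABP4* (902 and 205 at that p, 1600 and 127 by DESeq2). With *DLK2* only it called 6 genes, against 938 with the block.

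With 3 cows a permutation cannot pass 0.05. Detection at 5000 UMIs misses low transcripts, and the classes and the axis use the same 4 sparse markers.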
